A study of Homo sapiens with 2 samples.

Results

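The regulators and executioners of apoptosis were examined in SBC5, a cell line established from small cell lung cancer. They comprised BCL2 family proteins, inhibitors of apoptosis, caspases, death receptors with their adaptors and proteins released from mitochondria. The genes came from a list of 45 names, and a gene entered when the deposited table had a row of that name, alone or joined to another symbol. Of the 45, 39 had such a row, against 12494 gene names in the whole table, and the row with the highest mean level was used where a name had several. BIK, BIRC3, CASP4, CASP10, FAS and TNFRSF10A were not analysed here.

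Polyadenylated RNA was sequenced from a cisplatin-resistant derivative of SBC5 and from the parental cells, with 1 library of each. The resistant cells had been selected with cisplatin, a platinum drug that crosslinks DNA, at 1, 2, 4 and then 20 µg/ml, and both forms were grown in RPMI medium with serum. Whether the resistant cells are 1 clone or a mixed population, and whether the drug was present when RNA was taken, is not given in the sources used here. Levels are FPKM, fragment counts normalised for locus length and library size. There were no replicates, so the differences below hold for these 2 libraries alone and could not be tested. A lower level can reflect fewer cells that express a gene or less of its RNA per cell, and bulk RNA cannot tell these apart.

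Apoptosis is a programmed death in which caspases, proteases made as inactive precursors, dismantle the cell. In the mitochondrial route, which DNA damage from drugs such as cisplatin can trigger, BH3-only proteins neutralise BCL2-type guardians or activate the effectors BAX and BAK1, which open the outer mitochondrial membrane and release cytochrome c. Cytochrome c assembles APAF1 and caspase-9 into the apoptosome, while in the receptor route TRAIL, FAS or TNF receptors recruit FADD and caspase-8. IAP proteins and FLIP hold caspases in check, and the mitochondrial proteins DIABLO and HTRA2 relieve the IAPs.

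Most apoptosis genes were expressed at close to the same level in resistant and parental cells, as were most of all genes compared. Of the 39 genes, the guardian BCL2A1 was lower by at least 2-fold in resistant cells (1 gene), and 0 were higher by that much. The limit was 2-fold on the scale of log2(FPKM + 1), which understates the change of low genes. Among the 12405 genes that reached 1 FPKM in a library, 3.28% were higher and 2.70% lower by that limit, so 1 of 39 (2.56%) lower is a share near the background. All 39 apoptosis genes reached 1 FPKM. Their log2 ratios, resistant over parental, had a median of 0.05, against -0.04 for all genes compared. Of the 39, 23 lay above 0 and 16 below, so 59.0% lay above 0, against 44.4% of all genes. When the libraries were brought to the same summed FPKM the medians were -0.04 and -0.12, and 17 apoptosis genes lay above 0 and 22 below. On the deposited scaling 35 of the 39 (89.7%) lay within 0.5 of 0 on the log2 scale, against 82.7% of all genes and 84.4% of the 10869 genes in the same range of level. Within 0.1 of 0 lay 30.8%, against 28.2% and 29.4%. The median absolute log2 ratio was 0.200 for the 39, 0.194 for all genes and 0.186 in the same range of level. By that measure the apoptosis genes differed no less than other genes.

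**Figure D1:**
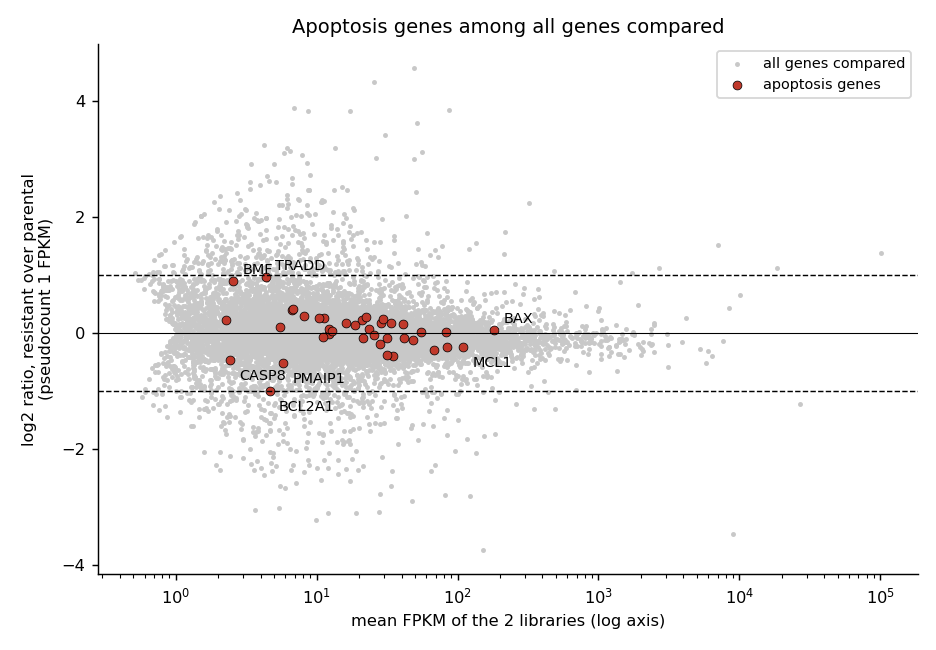
Log2 ratio of resistant over parental FPKM (pseudocount of 1 FPKM) against the mean FPKM of the 2 libraries on a log axis, with 1 grey point for each of 12405 genes and red points for the 39 apoptosis genes. Dashed lines mark 2-fold, and BCL2A1 at -1.01 is the apoptosis gene at the lower line while TRADD (0.96) and BMF (0.88) lie just under the upper one.

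The size of the difference went with the level of the gene. The 10 apoptosis genes with a mean under 10 FPKM had a median absolute log2 ratio of 0.44, against 0.27 for all genes under 10 FPKM. The other 29 had 0.15, against 0.17 for all genes from 10 FPKM up, and lay between -0.40 for TNFRSF10B and 0.27 for BAK1. Each of the 39 lay inside the central 95% of the genes of like level, taken as the bin that holds it among 20 bins of mean FPKM. Across the 39 genes, which are not independent replicates, Pearson's r of the log2(FPKM + 1) levels between the libraries was 0.972 and Spearman's rho of the levels was 0.980. The largest move in the order of levels was 5 places, and 10 of the 39 moved by more than 2.

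**Figure D2:**
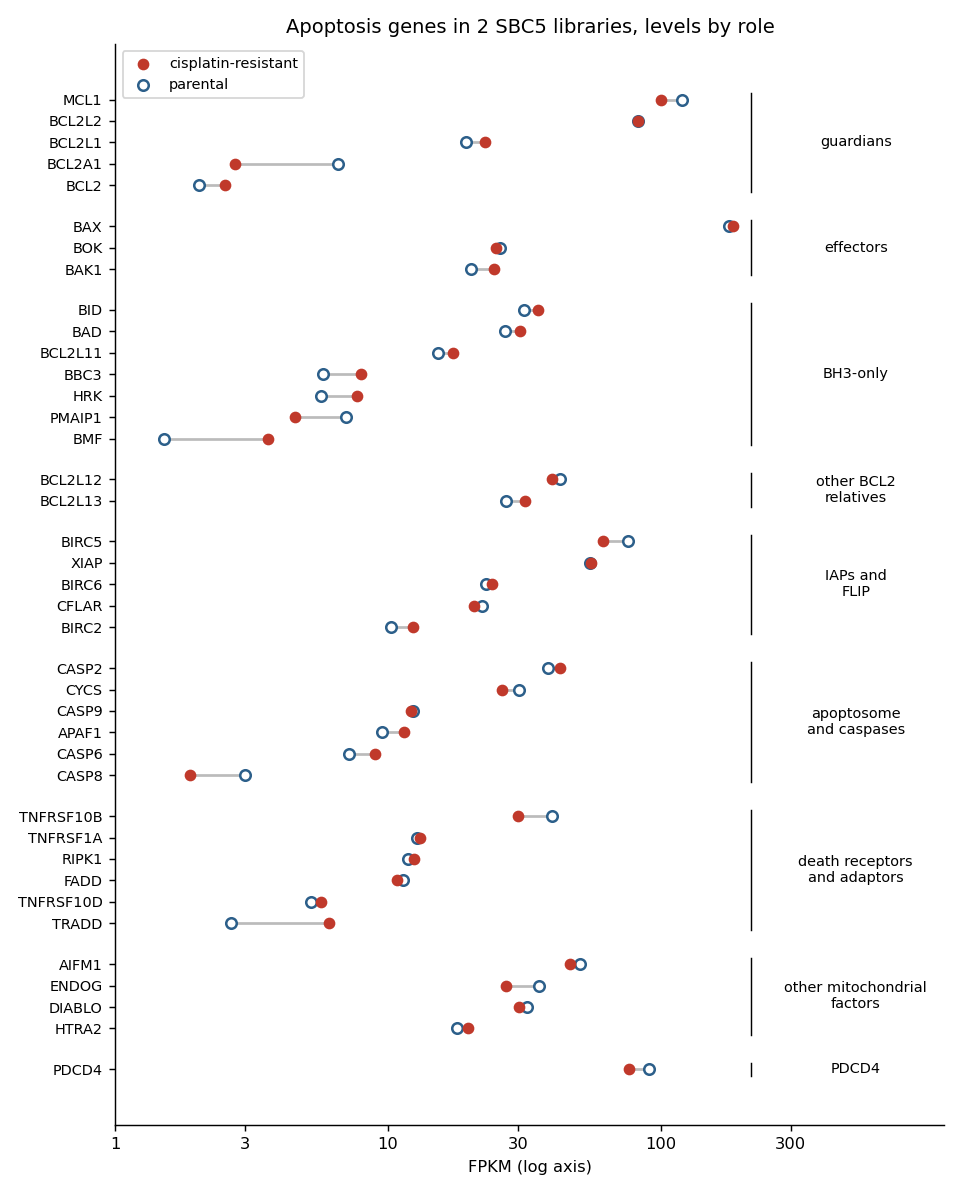
FPKM of each of the 39 apoptosis genes on a log axis, grouped by role and ordered by mean level, with filled red points for the resistant library and open blue points for the parental library. Most pairs of points nearly touch, from BAX (185 FPKM resistant, 179 FPKM parental) down to BCL2 (2.52 FPKM resistant, 2.02 FPKM parental), and the widest gaps are those of BCL2A1, BMF and TRADD.

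The guardians hold BAX and BAK1 inactive. MCL1, a short-lived guardian, was the most abundant of the 5, with 100.5 FPKM in resistant and 119 FPKM in parental cells (log2 ratio -0.25). BCL2L1, which encodes BCL-XL, had 22.7 FPKM in resistant and 19.3 FPKM in parental cells (0.23). BCL2 itself was low in both libraries, with 2.52 FPKM in resistant and 2.02 FPKM in parental cells (0.22), and was 38th of the 39 genes by level in each. Only BCL2A1, of the 5 guardians, passed 2-fold. The locus that holds BCL2L2, which encodes BCL-w, is joined with PABPN1 in the table, and had 82.8 FPKM in resistant and 82.7 FPKM in parental cells, a value that covers both genes.

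BCL2A1, also called BFL-1, is a guardian best known from blood cells and is a target of NF-kB. It had 2.75 FPKM in resistant cells against 6.55 FPKM in parental cells, a plain ratio of 0.420 and a log2 ratio of -1.01. The difference, resistant minus parental, was -3.79 FPKM, and BCL2A1 ranked 328th from the lowest of the 12405 genes. It was the apoptosis gene nearest the limit from outside, and TRADD, at 0.96, the nearest from inside. The call did not hold under every setting, since the log2 ratio was -1.22 with a pseudocount of 0.1 FPKM, -0.57 with one of 5 FPKM and -0.98 with the resistant library divided by the median ratio of genes. The central 95% of genes of like level ran from -1.47 to 1.52. The 2 of 8 listed haematopoietic markers with a row, HBB and CORO1A, summed to 17.3 FPKM in resistant and 28.8 FPKM in parental cells. CORO1A made up most of that sum, with 16.8 FPKM in resistant and 26.1 FPKM in parental cells (log2 ratio -0.61, within 2-fold). HBB was low, with 0.472 FPKM in resistant and 2.69 FPKM in parental cells (-1.32, and -0.49 with a pseudocount of 5 FPKM). The part of such markers in the result was not tested. The other 6, PTPRC and LYZ among them, were not analysed here.

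BCL2A1 lies on the minus strand of chromosome 15 from 79960889 to 79971446 (GENCODE release 29, same build as hg38). Its promoter is printed because it is the gene that passed the limit, and BMF, the highest gene on a strand-assigned locus, is set beside it. Both windows run from 250 bases before to 50 bases after an annotated start, 5′ to 3′, from RefSeq on GRCh38.p14, and capitals mark motif matches on either strand.
BCL2A1, chr15:79971147-79971446, minus strand: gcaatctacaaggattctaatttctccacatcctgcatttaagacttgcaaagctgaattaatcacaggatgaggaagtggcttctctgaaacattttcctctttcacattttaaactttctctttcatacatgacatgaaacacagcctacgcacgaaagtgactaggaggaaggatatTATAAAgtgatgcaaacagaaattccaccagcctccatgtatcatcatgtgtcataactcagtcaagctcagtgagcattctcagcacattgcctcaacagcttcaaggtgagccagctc
BMF, chr15:40108830-40109129, minus strand: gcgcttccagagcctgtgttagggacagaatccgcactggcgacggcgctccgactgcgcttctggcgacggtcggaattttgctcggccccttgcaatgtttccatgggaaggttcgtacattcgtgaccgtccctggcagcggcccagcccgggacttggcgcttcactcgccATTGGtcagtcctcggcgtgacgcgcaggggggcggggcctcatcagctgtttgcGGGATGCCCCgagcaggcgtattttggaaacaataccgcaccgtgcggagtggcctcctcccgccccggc
The capitals in the BCL2A1 window are a TATA box, TATAAA, which 11.5% of 35116 promoter windows of the same length hold. In the BMF window shown they are a CCAAT box read on the opposite strand, held by 34.6% of the windows, and a match to the NF-kB consensus, held by 5.91%. The BCL2A1 window had no match to the NF-kB consensus in these letters. G and C made up 41.0% of the BCL2A1 window and 65.0% of the BMF window shown, against a median of 58.7% over all windows. A second annotated start of BMF, whose window is chr15:40106917-40107216, had 50.3% G and C, below that median, and no match to any motif searched. A match is a description of the letters and not evidence of binding.

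The effectors form the pore in the outer mitochondrial membrane. BAX, on the plus strand of chromosome 19 from 48954815 to 48961798, was the highest of all 39 apoptosis genes in both libraries, with 185 FPKM in resistant and 179 FPKM in parental cells (log2 ratio 0.05, and -0.04 with sums scaled to be equal). BAK1, its partner on mitochondria, had 24.6 FPKM in resistant and 20.1 FPKM in parental cells (0.27). BOK, an effector relative that does not need the others, had 24.9 FPKM in resistant and 25.8 FPKM in parental cells (-0.05). All 3 effectors were within 2-fold, and BAX made up 78.9% of their summed FPKM in resistant and 79.6% in parental cells. The summed guardians without the joined BCL2L2 locus came to 0.548 of the summed effectors in the resistant library and 0.655 in the parental library, as ratios of FPKM within a library. With the joined locus the ratio was 0.902 in resistant and 1.02 in parental cells.

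The BH3-only genes encode the sensors of the mitochondrial route. Of the 7 measured, 6 lay above 0 and 1 below, none past 2-fold, with a median log2 ratio of 0.17. Among all genes compared, 44.4% lay above 0. The same 6 lay above 0 under both alternative scalings. With 7 genes and 1 library per group, this count could not be tested. BMF, a sensor tied to the cytoskeleton, had the highest log2 ratio of the group, 0.88, with 3.62 FPKM in resistant and 1.504 FPKM in parental cells. As a plain ratio of FPKM it was 2.40, and with a pseudocount of 0.1 FPKM the log2 ratio was 1.21, past 2-fold, while with one of 5 FPKM it was 0.41. BMF was the lowest of the 39 genes in the parental library and 36th in the resistant library. It lies on chromosome 15 from 40087890 to 40108892, minus strand.

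BBC3, which encodes PUMA and is known to be induced by DNA damage, had 7.93 FPKM in resistant and 5.75 FPKM in parental cells (log2 ratio 0.40). PMAIP1 encodes NOXA, a sensor that binds MCL1 among other guardians and is also known to be induced by DNA damage. This gene went the other way with 4.57 FPKM in resistant and 6.996 FPKM in parental cells (-0.52). PMAIP1 lies on the plus strand of chromosome 18 from 59899948 to 59904306. These 2 damage-induced sensors therefore lay on opposite sides of 0, each within 2-fold. HRK, a sensor known from neurons, had 7.72 FPKM in resistant and 5.68 FPKM in parental cells (0.38). That ratio equals 15 to 11 after allowing for the worth of 1 read, a ratio of small whole numbers that makes few reads likely.

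The more abundant BH3-only genes had the smallest log2 ratios. BID, which caspase-8 cleaves to link the receptor route to mitochondria, had 35.6 FPKM in resistant and 31.5 FPKM in parental cells (0.17). BAD, which growth factor signalling inactivates by phosphorylation, had 30.4 FPKM in resistant and 26.9 FPKM in parental cells (0.17). BCL2L11, which encodes BIM, had 17.3 FPKM in resistant and 15.2 FPKM in parental cells (0.17, and 0.08 with loci of the name summed). In total the 7 genes had 107 FPKM in resistant and 93.6 FPKM in parental cells.

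BCL2L11 is known as a target of FOXO forkhead factors. Among the 60 windows found for 33 of the 39 genes, only its window held the forkhead motif GTAAACA. That is a share of 1.67%, below the 3.42% of all windows. The BCL2L11 window is printed to show where that motif stands, with the motif in capitals. A CCAAT box, read on the opposite strand, is also in capitals.
BCL2L11, chr2:111120664-111120963, plus strand: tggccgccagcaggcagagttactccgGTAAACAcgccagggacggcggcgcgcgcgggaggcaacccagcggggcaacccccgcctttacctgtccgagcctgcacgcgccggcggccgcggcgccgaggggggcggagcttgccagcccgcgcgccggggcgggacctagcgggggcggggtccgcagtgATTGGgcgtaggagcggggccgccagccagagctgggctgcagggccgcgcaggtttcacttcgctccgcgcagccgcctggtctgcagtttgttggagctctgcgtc
FOXO3 had 8.10 FPKM in resistant and 14.5 FPKM in parental cells (log2 ratio -0.77) and FOXO1 had 4.72 FPKM in resistant and 7.55 FPKM in parental cells (-0.58), both within 2-fold. The 60 windows held further motifs at shares of 5.00% for NF-kB, 10.0% for AP-1 (TGANTCA), 33.3% for the CCAAT box (CCAAT) and 6.67% for the TATA box. Among all windows the shares were 5.91%, 7.71%, 34.6% and 11.5%, in the same order. Not every motif searched is reported here.

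**Figure D3:**
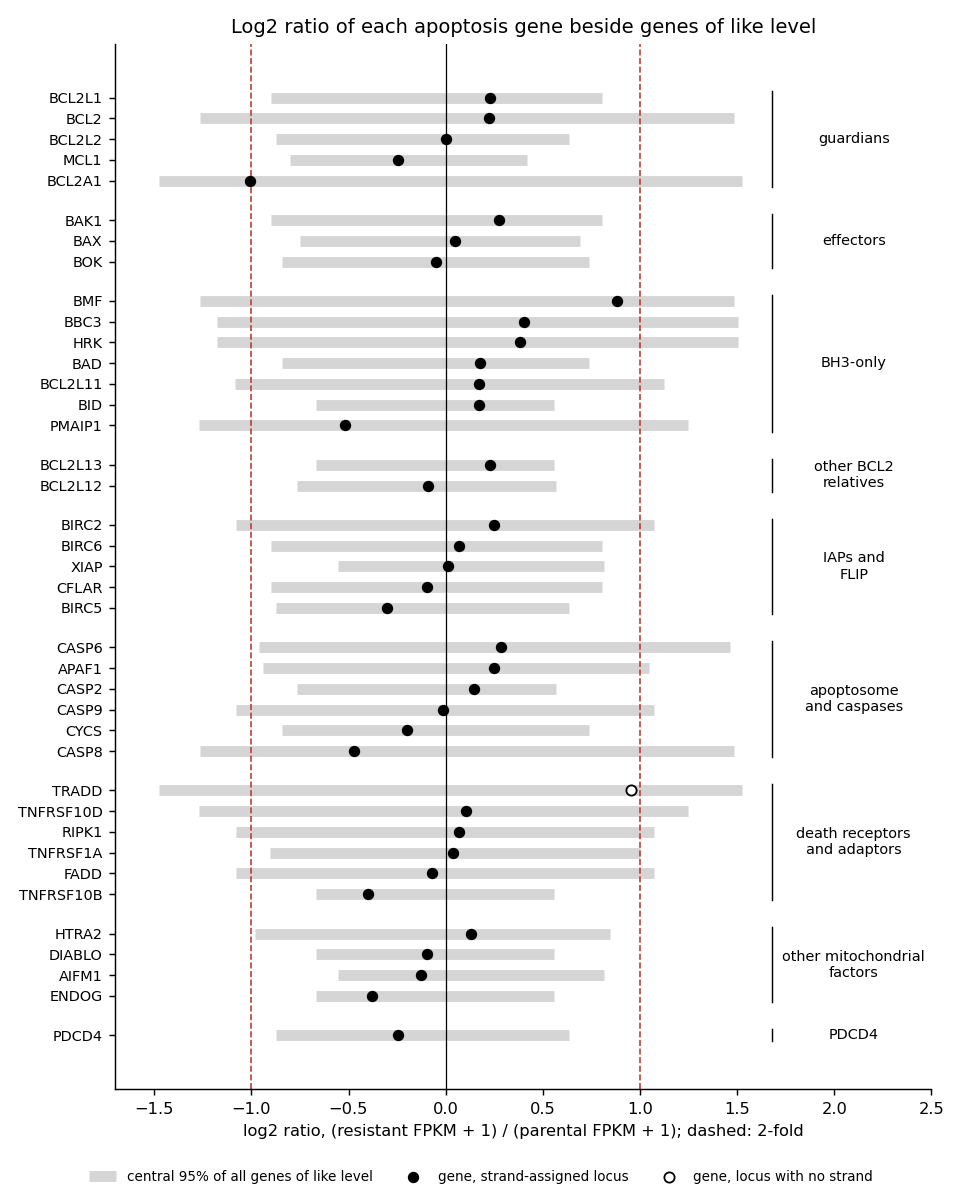
Log2 ratio of resistant over parental FPKM (pseudocount of 1 FPKM) for each of the 39 apoptosis genes by role, with grey bars for the central 95% of all genes of like level and dashed lines at 2-fold. Every point lies on its grey bar, BCL2A1 lies at the lower dashed line, and the open point is TRADD, the gene represented by a locus without a strand.

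BCL2L13 and BCL2L12 are divergent relatives of the family. BCL2L13, a mitochondrial protein also linked to mitophagy, had 31.8 FPKM in resistant and 27.0 FPKM in parental cells (log2 ratio 0.23). BCL2L12 had 40.1 FPKM in resistant and 42.7 FPKM in parental cells (-0.09) on its plus-strand locus. A second BCL2L12 locus, with no strand, had 28.4 FPKM in resistant and 19.7 FPKM in parental cells, and summing both turned the log2 ratio to 0.13.

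The inhibitors that act on caspases were also within 2-fold, 5 of 5 measured. XIAP, the IAP that blocks caspase-9 and the executioner caspases directly, had 55.6 FPKM in resistant and 55.2 FPKM in parental cells (log2 ratio 0.01, and -0.07 with sums scaled to be equal). BIRC5, or survivin, an IAP that also serves chromosome segregation in mitosis, had 61.3 FPKM in resistant and 75.7 FPKM in parental cells (-0.30). BIRC2, a ubiquitin ligase of TNF receptor complexes, had 12.4 FPKM in resistant and 10.2 FPKM in parental cells (0.25). The giant IAP BIRC6 had 24.1 FPKM in resistant and 23.0 FPKM in parental cells (0.07). CFLAR, which encodes FLIP, the decoy of caspase-8, had 20.7 FPKM in resistant and 22.2 FPKM in parental cells (-0.10). XIAP and BIRC5 were thus the most abundant inhibitors in both libraries, and the ratio of XIAP to its antagonist DIABLO was 1.84 in the resistant and 1.70 in the parental library.

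The apoptosome and the caspases showed small differences of both signs, 3 above 0 and 3 below, or 4 above and 2 below with the resistant library divided by the median ratio of genes, which turned CASP9 to 0.02. APAF1, the scaffold of the apoptosome, had 11.5 FPKM in resistant and 9.48 FPKM in parental cells (log2 ratio 0.25), while CASP9, the initiator it activates, had 12.2 FPKM in resistant and 12.3 FPKM in parental cells (-0.02). CYCS, the gene of cytochrome c, had 26.3 FPKM in resistant and 30.3 FPKM in parental cells (-0.20), a value made uncertain by the many processed copies of this gene in the genome. CASP2, an initiator linked to genotoxic stress, was the most abundant caspase measured, with 42.8 FPKM in resistant and 38.5 FPKM in parental cells (0.15). The executioner CASP6 had 8.99 FPKM in resistant and 7.19 FPKM in parental cells (0.29).

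CASP8, the initiator of the receptor route, was the lowest caspase, with 1.87 FPKM in resistant and 2.98 FPKM in parental cells (log2 ratio -0.47, and -0.22 with a pseudocount of 5 FPKM). CASP8 lies on the plus strand of chromosome 2 from 201233443 to 201287711, and was 39th of the 39 genes by level in the resistant library and 36th in the parental library. Its inhibitor CFLAR lies on the same strand of chromosome 2 and is the locus listed just before it. FPKM of CFLAR was 11.0 times that of CASP8 in the resistant library and 7.44 times in the parental library.

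Death receptors and adaptors were measured in 6 of 8 cases, and none passed 2-fold. TNFRSF10B, the TRAIL receptor DR5, had 29.99 FPKM in resistant and 39.9 FPKM in parental cells (log2 ratio -0.40), the lowest ratio among the 29 genes with a mean of at least 10 FPKM. It lies on the minus strand of chromosome 8 from 23020133 to 23069179. TNFRSF10D, a TRAIL receptor with a truncated death domain that acts as a decoy, had 5.68 FPKM in resistant and 5.23 FPKM in parental cells (0.10). Both receptors lie on chromosome 8, as neighbouring rows of the table, and the signalling receptor exceeded the decoy 5.28-fold in the resistant and 7.64-fold in the parental library. TNFRSF1A, the TNF receptor, had 13.1 FPKM in resistant and 12.8 FPKM in parental cells (0.04). FADD, the adaptor that recruits caspase-8, had 10.8 FPKM in resistant and 11.3 FPKM in parental cells (-0.07). RIPK1, a kinase that directs TNF signals to survival or death, had 12.5 FPKM in resistant and 11.9 FPKM in parental cells (0.07).

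TRADD, the adaptor that first binds TNFRSF1A, gave different values by locus. Its row with the highest mean, a locus without a strand, had 6.09 FPKM in resistant and 2.66 FPKM in parental cells (log2 ratio 0.96). The locus of TRADD in the minus-strand part of the table had 4.69 FPKM in resistant and 3.84 FPKM in parental cells (0.23), and all 3 loci summed gave 0.61. TRADD passed 2-fold with a pseudocount of 0.1 FPKM (1.17). The other 38 genes were represented by a strand-assigned locus. Among their further loci, a strandless FADD locus had 1.54 FPKM in resistant and 5.68 FPKM in parental cells, a ratio of 3 to 11 after allowing for the worth of 1 read, and with it summed the log2 ratio of FADD was -0.44.

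In all, 8 of the 39 genes had 10 further loci, 8 of them strandless. The further BAX locus was low beside the main one, with 3.23 FPKM in resistant and 1.57 FPKM in parental cells. The 2 further HRK loci had 2.34 and 1.55 FPKM in resistant cells, against 1.07 and 0.647 FPKM in parental cells, in ratios of 11 to 5 and 12 to 5 after allowing for the worth of 1 read, and the summed log2 ratio of HRK was 0.59. The further BCL2L11 locus had 1.05 FPKM in resistant and 2.12 FPKM in parental cells, a ratio of 1 to 2. That of CASP2 had 2.75 FPKM in resistant and 2.62 FPKM in parental cells, and that of CFLAR, in the minus-strand part and so opposite to the gene, 1.88 FPKM in resistant and 1.91 FPKM in parental cells. These loci changed the sign of the log2 ratio only for BCL2L12.

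**Figure D4:**
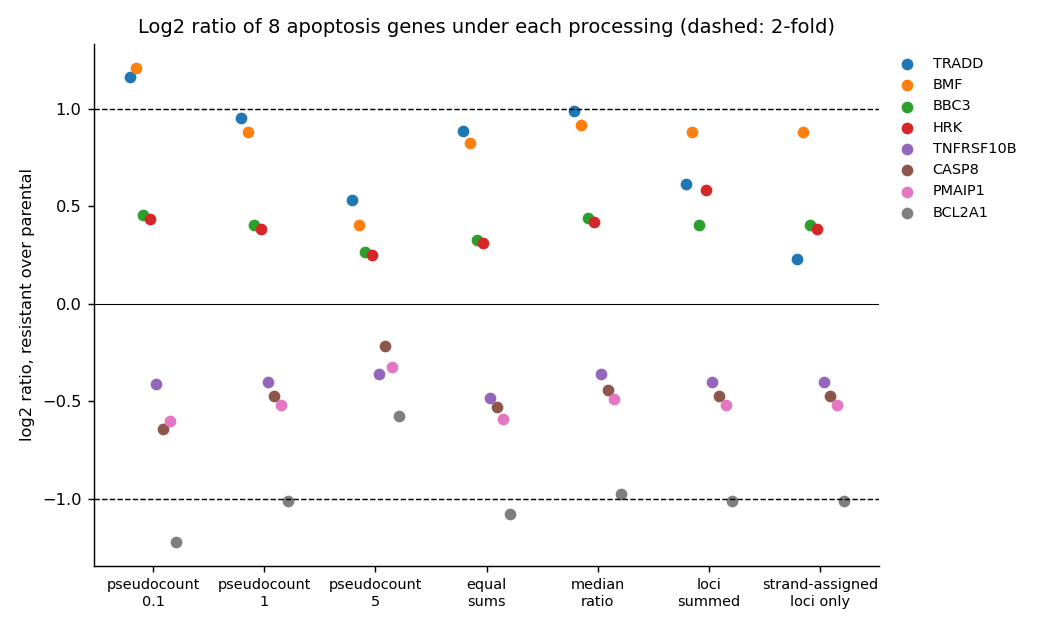
Log2 ratio of resistant over parental FPKM for the 4 highest and the 4 lowest apoptosis genes, with 1 colour per gene and 1 column per processing choice, and dashed lines at 2-fold. BMF and TRADD pass the upper line with a pseudocount of 0.1 FPKM, BCL2A1 lies inside the lower line with a pseudocount of 5 FPKM and after division by the median ratio, and TRADD drops to 0.23 with strand-assigned loci only.

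The other proteins that leave mitochondria lay 3 below 0 and 1 above. ENDOG, a mitochondrial nuclease, had 27.2 FPKM in resistant and 35.7 FPKM in parental cells (log2 ratio -0.38). AIFM1, a flavoprotein of the respiratory chain that can act in the nucleus in caspase-independent death, had 46.4 FPKM in resistant and 50.7 FPKM in parental cells (-0.13). Both antagonists of IAPs were close to equal, DIABLO with 30.2 FPKM in resistant and 32.4 FPKM in parental cells (-0.10) and the protease HTRA2 with 19.7 FPKM in resistant and 17.9 FPKM in parental cells (0.13). PDCD4, an inhibitor of translation initiation named for its link to cell death, had 76.4 FPKM in resistant and 90.9 FPKM in parental cells (-0.25).

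Other genes of these pathways were taken from 7 lists, and 96 of 120 listed genes were compared. Of the 96, 2 passed 2-fold upward (background 3.28%), 1 downward (background 2.70%) and 93 lay between, and their median log2 ratio was -0.04. A gene past the limit on each side lay among death ligands and receptors, where 7 of 12 were measured and the median was 0.39. Of the 7, 5 lay above 0 and 2 below. That median includes TNFRSF25 (0.78) and TNFSF12 (0.63), whose loci are joined with other genes. Their values therefore cover more than the named gene, and the median is not a clean measure of the list. TNFSF10, the ligand TRAIL, had 2.44 FPKM in resistant and 0.388 FPKM in parental cells (log2 ratio 1.31, and 0.47 with a pseudocount of 5 FPKM). EDA2R, a receptor of the TNF family, had 1.22 FPKM in resistant and 5.88 FPKM in parental cells (-1.63, and -0.81 with a pseudocount of 5 FPKM). TRAIL and its receptor TNFRSF10B lay on opposite sides of 0. TNFSF10, however, reached 1 FPKM in the resistant library alone, so its entry and its side of 0 are not independent. MFN1, which fuses outer mitochondrial membranes, passed with 56.7 FPKM in resistant and 27.5 FPKM in parental cells (1.02) on a locus without a strand, and its strand-assigned locus had 12.9 FPKM in resistant and 12.4 FPKM in parental cells.

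No gene of the other 5 lists passed 2-fold on the scale of log2(FPKM + 1). Among other caspases and gasdermins, where 4 of 11 were measured with a median of -0.41, GSDMB, a gasdermin, had the largest difference, with 4.48 FPKM in resistant and 7.29 FPKM in parental cells (-0.60). Among 12 execution nucleases and caspase substrates (median -0.06), PARP1, a DNA break sensor that caspases cleave, had 109 FPKM in resistant and 156 FPKM in parental cells (-0.52). Among 16 of 18 genes of death after DNA damage (median 0.17), PERP, a membrane protein, had 11.2 FPKM in resistant and 22.5 FPKM in parental cells (-0.94). Among 19 of 22 genes of TNF receptor complexes and necroptosis (median 0.04), the adaptor TRAF5 had 3.19 FPKM in resistant and 5.24 FPKM in parental cells (-0.57). Among 19 of 25 regulators of BCL2 proteins and IAPs (median -0.12), FOXO3, described above, had the largest difference. The mitochondrial membrane list, with 19 of 20 measured, had a median of -0.07.

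**Figure D5:**
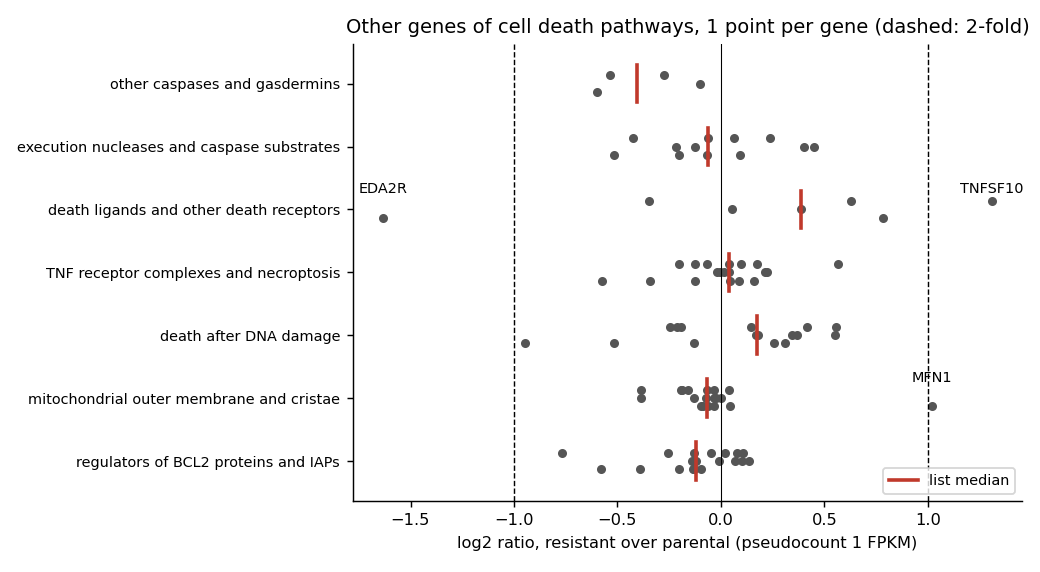
Log2 ratio of resistant over parental FPKM (pseudocount of 1 FPKM) for 96 other genes of cell death pathways in 7 lists, with 1 grey point per gene spread vertically to limit overlap, a red bar for the list median and dashed lines at 2-fold. TNFSF10 (1.31), MFN1 (1.02) and EDA2R (-1.63) are the genes past 2-fold.

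The table held 19217 loci, and their FPKM summed to 1081047 in the resistant and 1019555 in the parental library. The number of reads behind a value is unknown. Markers of this cancer were present in both libraries: YAP1, which marks a form without neuroendocrine features, had 84.7 FPKM in resistant and 76.6 FPKM in parental cells, and 6 of 11 listed neuroendocrine markers had a row, with a median log2 ratio of 0.11. UCHL1, a neuroendocrine marker, had 259 FPKM in resistant and 251.3 FPKM in parental cells. INSM1 and CHGA were among the 5 not analysed here. Of fibroblast markers 3 of 7 had a row, and their summed FPKM was 21.5 in resistant and 51.5 in parental cells, with the members moving in opposite directions. PDGFRA, which dominated the sum, had 10.1 FPKM in resistant and 48.0 FPKM in parental cells (log2 ratio -2.14). COL3A1 had 7.51 FPKM in resistant and 1.18 FPKM in parental cells (1.97), and COL1A1 had 3.85 FPKM in resistant and 2.34 FPKM in parental cells (0.54), so that 2 of the 3 lay above 0. The part of these markers in the differences above was not tested. Of 4 endothelial markers 0 had a row, and they were not analysed here.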

How the data were processed

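The authors deposited FPKM per locus for 1 resistant and 1 parental library, per the file headers. Per the labels' protocols, libraries came from polyadenylated RNA with a kit that keeps strand, and per the submitters' processing notes TopHat2 and the build hg38 were used. How the FPKM were computed, and with which annotation, is not given in the sources used here. Sample descriptions tied each column to its library, with 0 left over.

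Rows without a name (2919) or with a name turned into a date (23) were left out, and the row with the highest mean stood for a name. Plus, minus and strandless parts of each chromosome were inferred from row order against GENCODE release 29, and 98.7% of annotated loci in a plus or minus part lay on that strand. The breaks between parts were chosen partly by agreement with these annotated strands, so that share is not an independent check. Genes that reached 1 FPKM in a library were compared as log2 of (resistant + 1) over (parental + 1). A 2-fold limit stood in for a test, since 1 library per group allows none. Ratios of low values equalled ratios of whole numbers up to 20, times 0.996 (relative tolerance 2e-05), at 52.9% of 7591 loci, which gives the relative worth of 1 read but not the depth.

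All apoptosis genes were named, with up to 4 genes past 2-fold, or else the one with the largest difference, in each pathway list. Genes and lists were chosen with earlier results of these data known. FOXO1 and the markers given were chosen after their values were seen. Some listed genes are not reported here. Steps were tested on simulated data. For the log2 ratio, the planted changes lay past the limit by design, in genes with at least 10 FPKM in the parental library. Calls on genes of low level were therefore not covered. Versions were NumPy 2.4.6, pandas 2.3.3, matplotlib 3.10.9 and Python 3.11.15.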

Additional observations from a re-analysis of the deposited data

How the results depend on the processing

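No paired analysis was possible because each group had 1 library, and no replicate could be left out. With a pseudocount of 0.1 FPKM, 2 apoptosis genes (BMF and TRADD) passed 2-fold upward, and 614 of all genes did, against 407. With a pseudocount of 5 FPKM, 0 apoptosis genes were at least 2-fold lower, and among all genes 142 were higher and 136 lower, against 335 lower before. BCL2A1 also lay inside the limit with the resistant library divided by the median ratio of genes, which left 0 apoptosis genes lower. A 4-fold limit gave 0 lower, and 76 higher and 60 lower among all genes. Pseudocount and limit change these counts by construction. Of 309 values of single apoptosis genes under the alternatives, 305 kept their side of 2-fold, and BCL2A1, the 1 gene past it, did not change sign. Many of these values could not change. The filters leave each ratio as it was, and the choices of locus can alter only genes with several loci. The count is therefore not a measure of stability. Scaling to an equal sum turned the median of the apoptosis genes to -0.04 and the sign of 6 genes (BCL2L2, XIAP, BIRC6, BAX, RIPK1 and TNFRSF1A), each within 0.1 of 0. The median ratio turned CASP9 and summing of loci BCL2L12. A filter of 5 FPKM left 36 of the 39. What depth limits could not be set, since the table holds no counts.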
